A study of Mus musculus with 6 samples.

Results

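Chemokines are small secreted or membrane-bound proteins that bind G protein-coupled receptors and steer the movement and contacts of cells. In the brain some of them are made by neurons, as Cx3cl1 is, whose receptor Cx3cr1 lies on microglia, and Cxcl12 guides migrating interneurons through the receptor Cxcr4. Ccl19 and Ccl21 share the receptor Ccr7 and are best known for drawing dendritic cells and T cells into lymph nodes.

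The probes described here are the non-control probes whose gene name on the array is a numbered Ccl, Cxcl, Ccr or Cxcr name, a Ccrl name or Cx3cl1. They carry 50 of the 27962 gene names on the array and are read by 66 of its 41174 probes. Of the names, 34 are of ligands with 44 probes and 16 of receptors with 22 probes. They were read in cerebral cortex of male mice with 1-colour Agilent arrays, 1 array per sample. The samples were 3 titled ko with the genotype label Cux2-/- (samples 53, 48 and 54), and they were set against 3 titled WT (samples 15, 62 and 16), to ask which transcripts differ. The WT-titled samples carry the genotype label Cux2+/-, a conflict the labels do not settle. The sources used here give neither the strain, nor the age, nor how the mutant allele was made.

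Cux2, the targeted homeodomain factor of upper-layer neurons, had log2 signals, given here and below minus the 75th percentile of the array, of -0.04, -0.05 and -0.01 in ko samples, against -0.03, 0.27 and 0.03 in WT samples, at the probe the array names Cutl2. The difference of -0.12 did not pass (limma adjusted p = 0.838, over all tested probes and with a threshold of 0.05). A second probe, matched to Cux2 through a synonym, differed by 0.08 (limma adjusted p = 0.947). The sources used here do not place either probe inside or outside the altered part of the gene, so they check nothing about the labels. Between 58.5% and 68.1% of all probes carried the scanner software's flag for well above background on ko arrays, against 62.7% to 72.7% on WT arrays. The correlations of log2 signal across tested probes, which are not independent replicates, were 0.991 to 0.994 within groups and 0.988 to 0.991 between groups. All 6 measured markers of cortical neurons were well above background on all arrays, with 0 called. The arrays lay on 2 slides, 2 ko and 1 WT on slide 1 and 1 ko and 2 WT on slide 2, and the labels do not say in so many words that samples are separate animals, so the p-values speak of the spread among these samples, which may be technical. The number of arrays limits the precision of every value, and in dissected tissue fewer cells of a type and less RNA per cell cannot be told apart.

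The array holds 1 probe named for Ccl21, called Ccl21c. The mouse carries several near-identical Ccl21 genes on chromosome 4, and in the gene table of the assembly GRCm38.p6 3 other genes, Ccl21d, Gm13304 and Gm10591, list Ccl21c as an older name. The order of genes there includes, in sequence, Dctn3, Galt, Il11ra1, Ccl27a, Ccl21d, Gm13304, Ccl21b, Gm10591, Ccl27b, Il11ra2, Ccl19, Ccl21a and Fam205c, so Ccl21 copies lie on both sides of Ccl19. Which copy or copies gave the signal of the Ccl21c probe is uncertain. The 250 bases before the annotated starts of 3 copies, and of Ccl19 for comparison, are shown to let the likeness of the copies be read outside the genes themselves (RefSeq, GRCm38.p6, 5′ to 3′, capitals marking the bases at which the Ccl21 windows differ).
Ccl21a, chr4:42773992-42774241, minus strand: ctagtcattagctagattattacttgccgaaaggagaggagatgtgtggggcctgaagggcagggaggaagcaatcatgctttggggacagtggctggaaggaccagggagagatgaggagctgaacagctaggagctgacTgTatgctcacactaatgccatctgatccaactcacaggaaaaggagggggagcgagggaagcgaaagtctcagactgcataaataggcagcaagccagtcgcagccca
Ccl21d, chr4:41903363-41903612, plus strand: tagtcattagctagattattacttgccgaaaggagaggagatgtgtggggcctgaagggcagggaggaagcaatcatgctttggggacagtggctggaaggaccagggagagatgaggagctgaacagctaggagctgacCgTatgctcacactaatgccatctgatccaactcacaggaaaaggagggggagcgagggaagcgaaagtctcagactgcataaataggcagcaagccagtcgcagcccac
Gm13304, chr4:42114537-42114786, plus strand: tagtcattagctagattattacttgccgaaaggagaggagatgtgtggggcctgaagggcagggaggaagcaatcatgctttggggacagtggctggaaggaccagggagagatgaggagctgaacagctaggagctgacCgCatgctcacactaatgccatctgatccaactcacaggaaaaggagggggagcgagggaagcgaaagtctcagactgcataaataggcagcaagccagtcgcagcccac
Ccl19, chr4:42756366-42756615, minus strand: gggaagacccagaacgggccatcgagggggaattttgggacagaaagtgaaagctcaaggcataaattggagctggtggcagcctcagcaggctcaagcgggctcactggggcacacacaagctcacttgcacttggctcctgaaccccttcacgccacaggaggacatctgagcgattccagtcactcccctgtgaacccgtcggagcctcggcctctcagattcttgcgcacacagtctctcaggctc

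The window of Ccl21d was shifted by 1 base against that of Ccl21a, and over the 249 shared bases they differed by 1 substitution, T142C, counted from 1 at the 5′ end of the Ccl21a window with the base of Ccl21a first. Gm13304 differed from Ccl21a by T142C and T144C, and its window was identical to that of Gm10591 over 250 bases. The identity to Ccl21a was 99.6% for Ccl21d and 99.2% for Gm13304. The windows of Ccl21b and Ccl19 reached no more than 35.5% and 34.7%, over 220 and 193 bases, at the best of the shifts tried without gaps. Larger shifts were not tried, so a likeness further displaced would be missed. Both strands were searched for TATAAA, the letters of the classical core promoter element, and for the core ATCGAT that Cut homeodomains can bind, which do not contain each other. Of 32817 promoter windows of the same length, 12.4% held the first and 0.728% the second. The windows of Ccl21a, Ccl21d, Gm13304, Gm10591 and Ccl19 held neither.

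Ccl21c was the member that passed the test. Its signal, in multiples of each array's 75th percentile, was 0.231, 0.172 and 0.178 in ko samples 53, 48 and 54, against 2.33, 6.27 and 3.18 in WT samples 15, 62 and 16. On the log2 scale the values were -2.11, -2.54 and -2.49 in ko samples and 1.22, 2.65 and 1.67 in WT samples. The 3 ko arrays lay together and far below every WT array, and the probe was well above background on all 6 arrays, so both groups were measured. Ccl21c fell by 4.23 on the log2 scale (SE 0.35, 95% interval -5.07 to -3.39, limma adjusted p = 0.0167), which is 18.7-fold lower (10.5 to 33.5-fold). The difference was -3.74 within slide 1 and -4.27 within slide 2, and it was -4.00 with slide in the fit (limma adjusted p = 0.0331). Leaving out 1 of ko 48, ko 54, WT 15 or WT 16 ended the call, with limma adjusted p of 0.0632, 0.0735, 0.0818 and 0.138, although the differences without them were -4.15, -4.17, -4.54 and -4.32. The call also ended where dimmer probes entered the test, at an adjusted p of 0.0844 and 0.197, with the difference as it was. It ended too after normexp correction with the deposited local backgrounds, where Ccl21c stood at -3.10 (limma unadjusted p = 5.00e-04, adjusted p = 0.988) and 0 probes were called on the array. With 53 outlying local backgrounds set to their array's median, a step chosen after the planned correction was seen, Ccl21c passed at -3.84 (adjusted p = 0.00562).

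**Figure D1:**
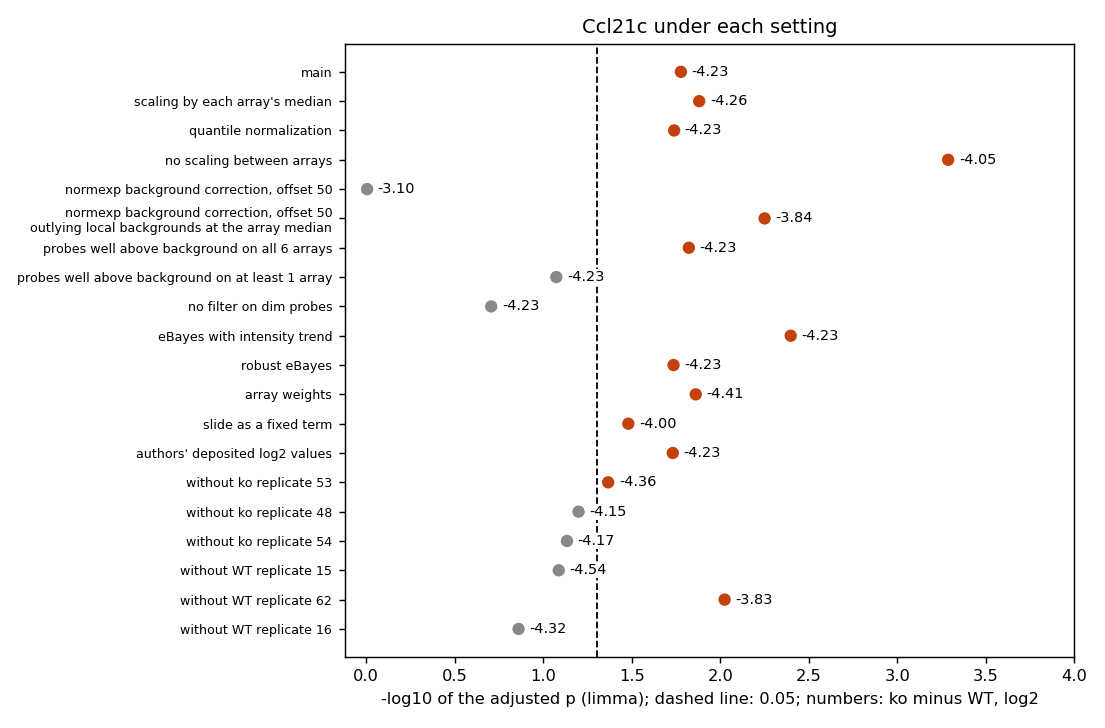
The limma adjusted p of Ccl21c under the main setting and 19 alternatives, as -log10, with the difference ko minus WT (log2) beside each point and a dashed line at 0.05. The differences lie between -4.54 and -3.10, and 7 settings fall short of the line.

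Ccl19, the other ligand of Ccr7, has 2 probes, and both stood lower on every ko array than on any WT array. Probe A_51_P458262 read -0.93, -0.94 and -0.65 in ko samples, against -0.37, -0.29 and -0.32 in WT samples. Probe A_51_P458258 read -0.63, -0.55 and -0.26 in ko samples, against -0.08, -0.11 and -0.02 in WT samples. The Ccl19 differences were -0.51 (95% interval -0.76 to -0.27) and -0.41 (-0.68 to -0.14), with unadjusted p of 0.00187 and 0.00883 and adjusted p of 0.235 and 0.416 in limma, so neither passed. They were -0.34 and -0.24 without scaling (unadjusted p = 0.0644 and 0.201), and both were -0.33 after normexp with the deposited backgrounds. With outlying backgrounds at the median they were -0.47 and -0.40 after normexp. Ccr7, the receptor of both ligands, was well above background on none of the 6 arrays. Ccrl1, now Ackr4, an atypical receptor that removes these ligands, was well above background on 1 ko array at 1 of its 2 probes and on no WT array.

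**Figure D2:**
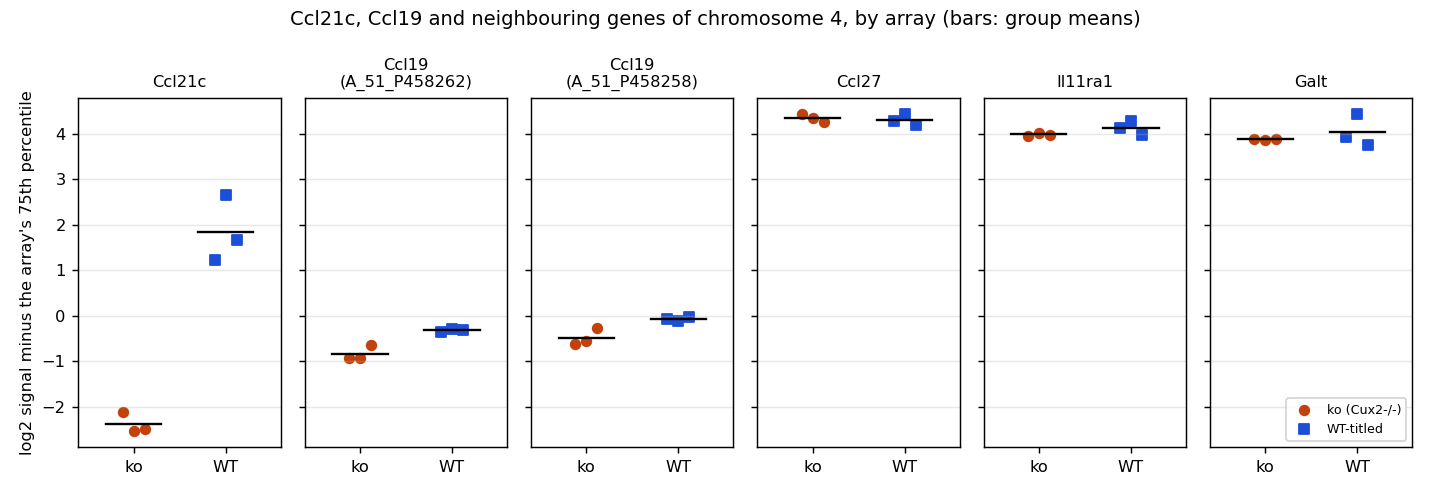
Log2 signal after subtraction of the 75th percentile of its array, for Ccl21c, both Ccl19 probes and 3 neighbouring genes of chromosome 4. Each point is 1 array, ko circles left of WT squares, and bars are group means; the Ccl21c groups stand 4.23 apart, the Ccl19 groups 0.51 and 0.41, and the other 3 genes overlap.

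Genes next to the Ccl21 copies were compared from a list of neighbours on chromosome 4. Of its 13 tested genes that are no chemokines, 5 were higher and 8 lower, with a median of -0.03 and 0 past the threshold, also at an unadjusted p under 0.05. Ccl27, a skin chemokine for Ccr10, lies beside the copies as Ccl27a and has a close copy of its own, Ccl27b, so its probe may read either. Ccl27 read 4.44, 4.35 and 4.26 in ko samples, against 4.28, 4.44 and 4.19 in WT samples, and these values overlapped (difference 0.05, 95% interval -0.19 to 0.28). Galt, a galactose enzyme, differed by -0.17 and Il11ra1, a cytokine receptor subunit with a close copy, by -0.14, with limma adjusted p of 0.886 and 0.801.

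Markers of cells that could carry Ccr7 ligands were read, and which cells of these samples carry the markers was not tested. Of the list for lymphatic vessels and lymph node stroma, Prox1, the regulator of lymphatic identity, differed by 0.06, the hyaluronan receptor Lyve1 by 0.32 and the mucin-like Pdpn by -0.14, with limma adjusted p of 0.892 to 0.961, and Flt4 and Madcam1 were well above background on 1 WT array each. The summed signal of the 3 measured genes was 0.595 to 0.730 in ko samples and 0.571 to 0.700 in WT samples. Prox1 weighs most in this sum, with log2 means of -0.92 in ko and -0.98 in WT samples. The means were -4.16 and -4.48 for Lyve1 and -3.54 and -3.40 for Pdpn, so the sum says little of these 2 genes. Vessel markers gave 7 higher and 7 lower of 14, and meningeal and fibroblast markers 5 higher and 3 lower of 8, with 0 called. Of the list for T cells, B cells and granulocytes, 3 of 9 genes were tested, 1 higher and 2 lower.

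Over all members, 25 probes of 19 genes were tested, those well above background on every array of one group or of both. They were 23 ligand probes of 17 genes and 2 receptor probes, 1 of them of Ccrl2. Of these, 24 were well above background on all 6 arrays, and Ccl2 entered through the WT arrays alone. Of the 25, 1 was called, Ccl21c, in a comparison in which 0.129% of the 25505 tested probes were called and 0.0784% were called lower. At an unadjusted p under 0.05 in limma there were 1 higher and 5 lower members (4 lower without Ccl2), where the shares over all probes were 3.89% higher and 4.07% lower (7.96% together). The groups did not overlap for 1 higher member, Ccrl2, and for 4 lower ones, Ccl21c, both Ccl19 probes and Ccl6, against 6.46% and 6.65% of all probes (13.1% together). The tested members counted 8 higher and 17 lower, with a median difference of -0.17 (-0.14 without Ccl21c), and over all probes the median was -0.00018. Without scaling between arrays, which moved the median of all probes to 0.17, the members counted 13 higher and 12 lower and their median was 0.0043. After normexp with the deposited backgrounds they counted 14 higher and 11 lower, with a median of 0.16 where that of all probes was 0.079. With outlying backgrounds at the array median, a step chosen after that outcome, they counted 8 higher and 17 lower. Their median was then -0.17, where that of all probes was -0.0091.

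**Figure D3:**
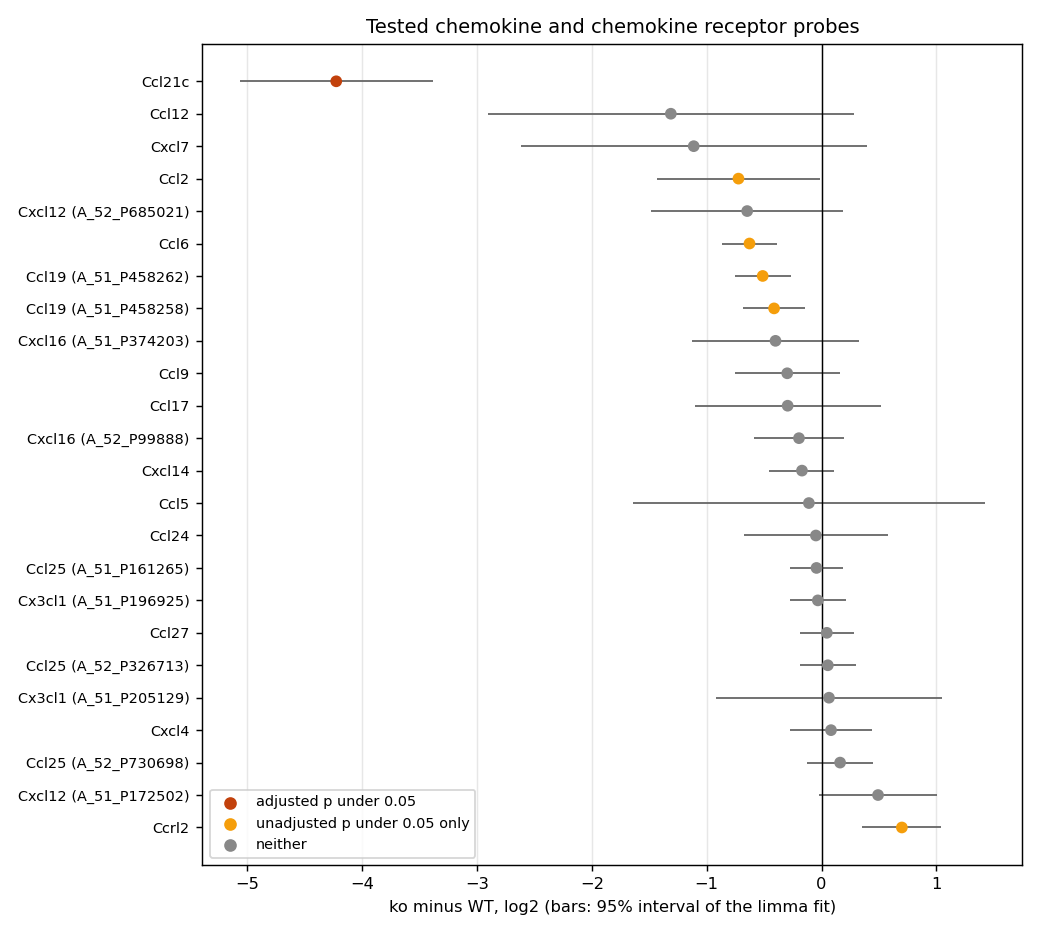
Difference ko minus WT on the log2 scale for the 23 tested ligand probes and the tested probe of Ccrl2, with 95% intervals of the limma fit, colours marking the adjusted and unadjusted p. The interval of Ccl21c runs from -5.07 to -3.39, and the probe of Ccrl2 has the highest value at 0.70.

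The neuronal ligand Cx3cl1, or fractalkine, has 2 probes and neither separated the groups. Probe A_51_P196925 read 6.87, 6.79 and 6.72 in ko samples, against 6.73, 6.996 and 6.75 in WT samples, a difference of -0.03 (95% interval -0.27 to 0.21). Probe A_51_P205129 read -1.69, -2.09 and -3.31 in ko samples, against -2.79, -2.32 and -2.17 in WT samples, a difference of 0.07 (-0.92 to 1.05). The arrays overlapped at both probes, and the wide interval of the second goes with a low value in ko 54. The direction of the first flipped to 0.03 after quantile normalization, to 0.14 without scaling, to 0.01 with slide in the fit and to 0.03 in the authors' deposited table. Its receptor Cx3cr1, a microglial gene outside the members, differed by -0.01 at one probe and by -0.35 at another, which was well above background on 2 of 3 ko arrays (limma adjusted p = 0.988 and 0.390). Of the proteases that shed Cx3cl1 from the membrane, Adam10 differed by -0.08 and Adam17 by -0.14.

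Cxcl12, the ligand of Cxcr4, gave opposite differences at its 2 probes, which the array file assigns to different transcript variants. Probe A_51_P172502 read 2.54, 2.19 and 2.70 in ko samples, against 2.21, 1.56 and 2.18 in WT samples. Probe A_52_P685021 read -1.79, -1.76 and -2.94 in ko samples, against -1.84, -1.13 and -1.58 in WT samples. WT 62 was the lowest array of the first probe and the highest of the second. The Cxcl12 differences were 0.49 (95% interval -0.02 to 1.005) and -0.65 (-1.49 to 0.19), with limma adjusted p of 0.642 and 0.720, and the groups overlapped at both. After normexp with the deposited backgrounds the second probe was at -0.077, and without ko 54 it was at -0.26, while the first was at 0.28 without WT 62. With outlying backgrounds at the median the first was at 0.51 and the second at -0.53 after normexp. Cxcr4 was well above background on 2 of 3 ko arrays and 2 of 3 WT arrays at 1 probe, and on 1 WT array at the other, so it was not tested. Ackr3, the scavenger receptor of Cxcl12, named Cmkor1 on the array and outside the members, differed by -0.09.

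Further ligands with little spread were Cxcl14, Ccl25 and Cxcl4. Cxcl14, a chemokine that interneurons of the cortex also make, read 3.66, 3.58 and 3.54 in ko samples, against 3.98, 3.74 and 3.57 in WT samples (difference -0.17, 95% interval -0.45 to 0.11). The groups overlapped, with WT 15 highest. Ccl25, a thymic chemokine for Ccr9, read 1.09, 1.22 and 1.25 in ko samples, against 1.35, 1.22 and 1.11 in WT samples at probe A_51_P161265 (difference -0.04), and its other probes differed by 0.06 and 0.16. Cxcl4, or Pf4, a platelet chemokine, read -1.38, -1.45 and -1.24 in ko samples, against -1.73, -1.42 and -1.18 in WT samples (difference 0.08). Ccl17, a ligand of Ccr4, read -2.78, -1.82 and -1.59 in ko samples, against -1.57, -2.198 and -1.53 in WT samples (difference -0.29). For all 4 genes the groups overlapped and limma adjusted p was at least 0.810.

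Several CC chemokines of myeloid cells stood lower in ko samples without passing. Ccl6 read -1.63, -1.76 and -1.49 in ko samples, against -1.02, -0.89 and -1.09 in WT samples, and every ko array lay below every WT array. The difference was -0.63 (95% interval -0.87 to -0.39, limma unadjusted p = 5.59e-04, adjusted p = 0.155), and it was -0.61 and -0.64 within slides 1 and 2 and -0.34 after normexp with the deposited backgrounds. With outlying backgrounds at the median before normexp it was -0.53. Ccl2, which attracts monocytes through Ccr2, read -5.18, -5.25 and -4.88 in ko samples, against -4.07, -5.09 and -3.99 in WT samples. The probe was well above background on 1 of 3 ko arrays and on 3 of 3 WT arrays, WT 62 lay among the ko values, and the difference of -0.72 had limma adjusted p of 0.618. Ccl12, the nearest relative of Ccl2, stood at -1.31 (95% interval -2.90 to 0.28), and Ccl9, a relative of Ccl6, at -0.30. Without WT 15 they were at -0.57 and -0.14, and without WT 16 Ccl9 was at -0.52. Cxcl16, a membrane-bound ligand of Cxcr6, stood at -0.40 and -0.20 at its 2 probes, and at -0.085 and -0.030 without WT 16. Ccl5, which attracts T cells, stood at -0.11.

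These genes lie on chromosome 11, most of them in the CC chemokine cluster there, a grouping made after their values were seen. The 6 member probes of chromosome 11, of 5 genes, that were well above background on all arrays were below 0 by the fit, with a median of -0.35 and 0 called, and Ccl2, which entered through the WT arrays alone, is not counted there. Without scaling Ccl5 was at 0.06, and with slide in the fit it was at 0.02. After normexp with the deposited backgrounds Ccl2, Ccl9, Ccl5 and both Cxcl16 probes were above 0. With outlying backgrounds at the array median they were at -0.32, -0.28, -0.17, -0.24 and -0.17, in that order. The microglial list lay the same way: all 16 measured markers were below 0, with a median of -0.44, 0 called over all probes and 12 lower at an unadjusted p under 0.05 in limma. The summed microglial signal was 62.3, 66.2 and 64.7 in ko samples, against 86.5, 78.1 and 98.6 in WT samples, with no overlap. Among the markers, Ly86 stood at -1.02, C1qc, a complement subunit, at -0.63, Selplg, a selectin ligand, at -0.41, Tmem119 at -0.37 and the purine receptor P2ry12 at -0.12. The part of these cells in the values of Ccl6, Ccl2 and the other myeloid chemokines was not tested. Striatal markers, from tissue next to the cortex, were also below 0 in 6 of 6, with a median of -0.51 and 0 called. Their summed signal was 10.6, 11.9 and 11.5 in ko samples, against 19.3, 19.1 and 11.3 in WT samples, so WT 16 lay with the ko arrays. Astrocyte markers were below 0 in 6 of 7, with 0 called and 2 lower at an unadjusted p under 0.05 in limma, Gfap at -0.58 and S100b at -0.30. Their summed signal was 129, 129 and 122 in ko samples, against 150, 152 and 134 in WT samples, with no overlap. Genes of high signal such as S100b weigh most in it. Gfap, S100b and Slc1a3 stood lower on every ko array, as 6.65% of all tested probes did, and the other astrocyte markers overlapped. All list counts used scaled values. Without scaling the median of all probes moved to 0.17, and P2ry12, Cx3cr1, Aqp4, Aldh1l1 and Slc1a3, among others, differed by less than that.

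Ccrl2 stood higher in ko samples without passing. This atypical receptor binds chemerin and does not signal like other chemokine receptors. At probe A_51_P232682 it read -3.92, -3.87 and -3.82 in ko samples, against -4.89, -4.39 and -4.42 in WT samples, and every ko array lay above every WT array. The Ccrl2 difference was 0.70 (95% interval 0.36 to 1.04, limma unadjusted p = 0.00216, adjusted p = 0.252), with 1.05 within slide 1 and 0.49 within slide 2. After normexp it was 0.59 with the deposited backgrounds and 0.29 with outlying backgrounds at the median. Its second probe, A_52_P334593, was well above background on 2 of 3 arrays of each group and was not tested. Chemerin itself, Rarres2, differed by -0.08, and its signalling receptor Cmklr1 by -0.67 (limma adjusted p = 0.833).

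Most of the remaining receptors and inflammatory ligands were near or below the background. In all, 15 probes of 14 genes did not reach that flag on any array. Another 10 probes reached it on some WT arrays and no ko array, and 5 on some ko arrays and no WT array. These classes were not counted over all probes of the array. Of all probes, 62.7% to 72.7% carried the flag on WT arrays, against 58.5% to 68.1% on ko arrays, so the counts are no result about the members. On every array 24 probes of 18 genes were well above background. By group, 24 probes were so on all ko arrays and 41 on at least 1, against 25 on all WT arrays and 46 on at least 1. Single arrays counted 30, 26 and 38 members in ko samples 53, 48 and 54, against 28, 32 and 44 in WT samples 15, 62 and 16, which follows the share of all probes well above background in having ko 48 lowest and WT 16 highest. The receptors Ccr1, Ccr7 and Ccr10 and the ligands Ccl1, Ccl11, Ccl20, Cxcl2, Cxcl13 and Cxcl15 were well above background nowhere. A change in them that stayed below that level was not detectable here. Ccl8, a monocyte attractant, was well above background on 2 WT arrays and no ko array, and Cxcl9 and Cxcl11, ligands of Cxcr3, on 1 WT array and no ko array. The other way, Ccl22, Ccl28, Ccr1l1 and 1 probe each of Ccr4 and Ccrl1 were so on 1 ko array and no WT array.

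**Figure D4:**
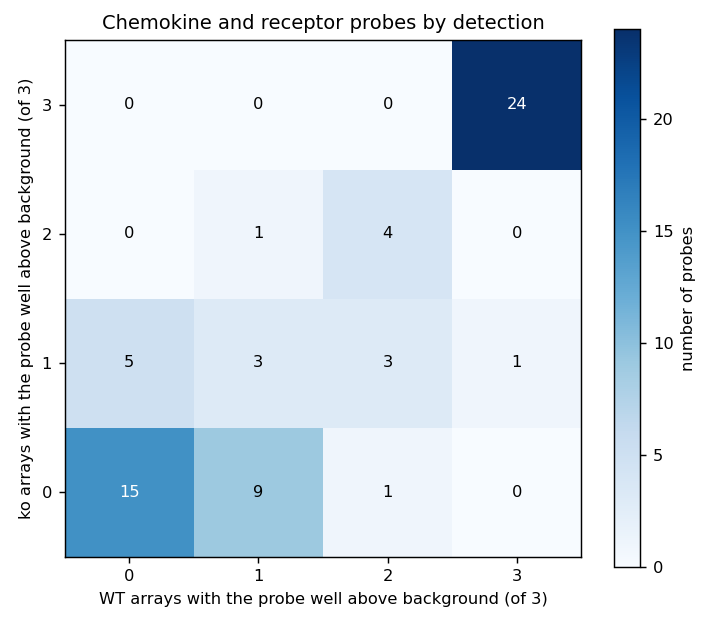
Number of the 66 member probes by how many ko arrays (vertical axis) and WT arrays (horizontal axis) had them well above background. The corners hold 24 probes on all arrays and 15 on none, and 9 probes were seen on 1 WT array only.

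The spread between arrays of a group differed from member to member. The median within-group SD of tested members was 0.17 in ko samples and 0.32 in WT samples, against 0.11 and 0.14 over all tested probes, with signal level not matched. Several members lay below that, as both Ccl19 probes did in WT samples, at 0.040 and 0.043. WT 16 was the highest array for 8 of 25 tested members, and it was the highest for 17.0% of all tested probes. It was also the highest for 9 of 26 untested members that were well above background on at least 1 array. WT 16 had the most probes so flagged, 72.7% of all probes. The share over untested probes of the array was not counted, so the 9 of 26 has no background to be read against. The genes named next were chosen for their spread after their values were seen. Cxcl7, or Ppbp, a platelet chemokine, read -4.08, -4.12 and -3.73 in ko samples, against -3.30, -3.96 and -1.32 in WT samples. Ccl5 read -2.90, -3.44 and -3.01 in ko samples, against -3.30, -4.23 and -1.50 in WT samples. In both WT 16 stood far above the other arrays, and the difference of Ccl5 turned to 0.65 on the log2 scale without it. Ccl12 read -4.77, -4.23 and -3.71 in ko samples, against -1.44, -4.15 and -3.18 in WT samples, so that WT 15 stood apart. Cxcl10, an interferon-induced ligand of Cxcr3, was well above background on 1 ko array and 1 WT array and highest in WT 16.

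**Figure D5:**
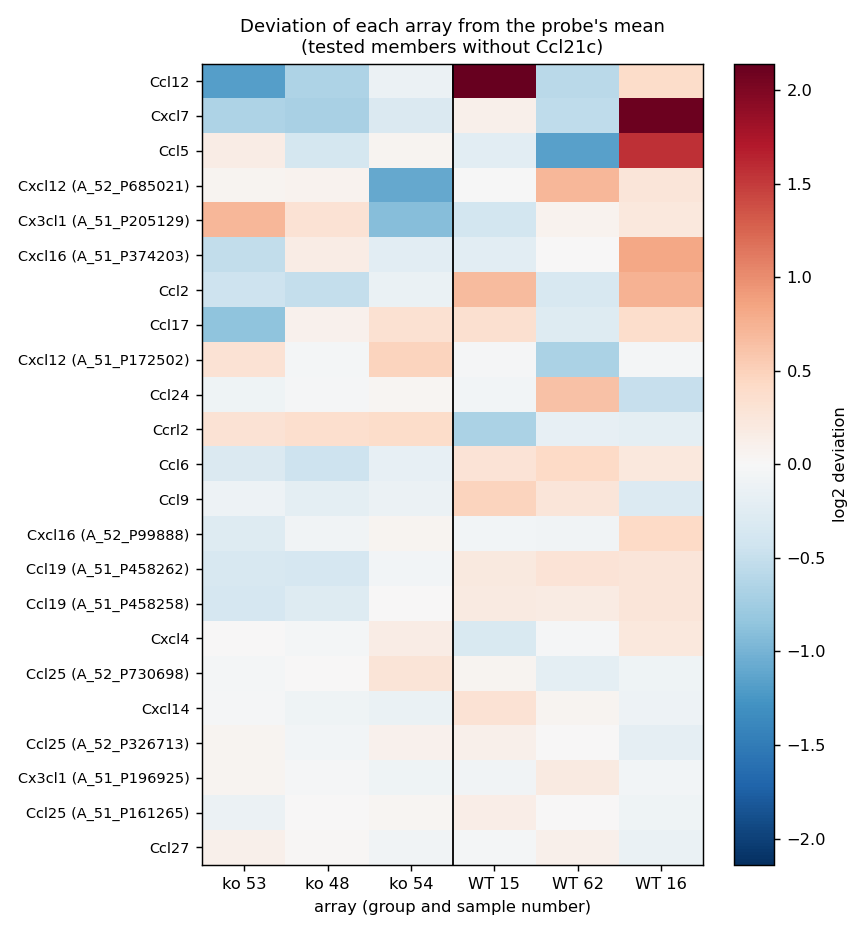
Deviation of each array from the mean of the probe over all 6 arrays, on the log2 scale, for the tested ligand probes other than Ccl21c and for Ccrl2, ordered by spread, with ko arrays left of WT arrays. WT 16 is high for Cxcl7 and Ccl5 and WT 15 for Ccl12, while the values of Ccrl2, Ccl6 and Ccl19 separate by group.

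Genes upstream and downstream of the chemokines were counted from fixed lists. Of 27 tested genes of receptor signalling, 10 were higher and 17 lower with a median of -0.07, 0 were called, and 2 were lower at an unadjusted p under 0.05 in limma. These were Pik3r5, a regulatory subunit of a lipid kinase driven by G proteins, at -0.43, and Vav1, an exchange factor of blood cells, at -0.31, while the inhibitory G protein subunits Gnai1, Gnai2 and Gnai3 differed by -0.13, -0.14 and 0.04. Of 13 tested inducers of chemokines, 4 were higher and 9 lower with a median of -0.11, and 1 was called. This was the Toll-like receptor Tlr1, which read -5.55, -5.56 and -5.22 in ko samples, against -3.04, -2.28 and -2.73 in WT samples (limma adjusted p = 0.0145). Tlr1 entered the test through the WT arrays alone, with 1 of 3 ko arrays well above background, so the size of its difference is not well measured. The subunit Rela of nuclear factor kappa B stood at -0.27, Il1b at 0.24, and Tnf was well above background on no array. Of 11 other tested genes of the chemokine system, 2 were higher and 9 lower, with 0 called. They include Ackr2, a scavenger of inflammatory CC chemokines named Ccbp2 on the array, at 0.43, and Ackr1, named Darc, at -0.34.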

How the data were processed

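Per the labels' protocols, total RNA of cerebral cortex was amplified and labelled with Cy3 for 1-colour arrays, 3 of samples titled ko and 3 of samples titled WT. Per the file headers, Agilent Feature Extraction 9.1.3.1 quantified the spots. The processed, mean and background signals are intensity values, of which the first was background-corrected within its array, per the file headers. A table of log2 values deposited by the authors served as an alternative. Its columns have the same median and rank the probes as the processed signal does. The table may be quantile normalized, but that comparison does not settle how it was scaled. The sources used here do not give its centring, its direction or the genome build of the annotation.

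The 45018 spots of an array include 1639 controls, which were dropped together with 120 outlier values summed over arrays. No spot value was saturated (0). Spots of the same probe were averaged into 41174 probes, and log2 processed signals were centred on the 75th percentile of the array. Probes entered the test when all 3 arrays of either group had them well above background, 25505 in all. The fit was lmFit with eBayes (limma 3.58.1, R 4.3.3, data.table, version 1.17.8), two-sided, Benjamini-Hochberg adjusted over every tested probe, with a threshold of 0.05 and 95% intervals. Gene names follow the GRCm38.p6 annotation given with the data, which matched 22951 probes by accession, 6659 by symbol and 3109 by synonym, while 8455 kept the name in the file. It holds all 50 member names. For a listed gene the tested probe of highest mean signal was used, and members were left out of list counts. Levels served to pick probes and to show which genes weigh most in a summed signal, and no other result compares the levels of different probes. The steps were tested on simulated data. Plots used matplotlib 3.10.9 (Python 3.11.15).

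Members, gene lists and tests were chosen with earlier results of these data known. Values by array are given for Ccl21, Cx3cl1 and Cxcl12 probes, for the 12 tested members with the highest mean WT signal and for tested members with an unadjusted p under 0.05. Of each list up to 4 genes of lowest p and the first 3 may be named. Named outside this rule, after their values were seen, were Adam10, Adam17, Ackr1, Ackr2, Ackr3, Rarres2, Flt4 and Madcam1 and, by array, Cxcl7, Ccl5 and Ccl12. Some single-gene results are not reported here. Alternatives concerned scaling, background correction (normexp, offset 50), the dim-probe filter, variance model, array weights, slide, the deposited values and single arrays.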

Additional observations from a re-analysis of the deposited data

How the results depend on the processing

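Ccl21c kept its direction in all 19 alternatives, between -4.54 and -3.10, with limma adjusted p from 5.17e-04 to 0.988. It did not pass under the planned normexp correction with the deposited local backgrounds (-3.10, unadjusted p = 5.00e-04, adjusted p = 0.988). Nor did it pass when probes well above background on at least 1 array were tested (-4.23, adjusted p = 0.0844) or without a filter (-4.23, adjusted p = 0.197), settings that test more probes, 30961 and 41080. Leaving out single arrays gave -4.54 to -3.83, and the call was lost without ko 48, ko 54, WT 15 or WT 16. Members called were 0 under normexp and both wider filters and 0 to 1 as arrays were left out. Over all probes 33 calls became 0 under normexp (limma), 3 and 2 under those filters, 15 with slide in the fit and 49 with scaling by the median, and between 2 (without WT 15 or WT 16) and 62 (without ko 53) as arrays were left out, with 13 without ko 54. The members' median of -0.17 was 0.16 under normexp, 0.0043 without scaling, -0.083 and 0.0075 under the wider filters, and -0.27 (without WT 62) to -0.065 (without ko 48) as arrays were left out, with -0.26 without ko 54 and -0.10 without WT 16. Values that changed sign were all of members that did not pass: Cx3cl1 probe A_51_P196925 (0.031 quantile normalized, 0.143 without scaling, 0.011 with slide, 0.029 in the authors' deposited table), Ccl24 (0.126), Ccl25 probe A_51_P161265 (0.131), Ccl5 (0.065) and Cxcl14 (0.0043) without scaling, Ccl5 (0.016) with slide, and, under normexp, Ccl2 (0.35), Ccl24 (0.25), Ccl27 (-0.025), Ccl5 (0.44), Ccl9 (0.030), Cxcl16 (0.34 and 0.37) and Cxcl7 (0.16). As arrays were left out, sign changes gave ranges of -0.078 to 0.053 and -0.27 to 0.54 for the Cx3cl1 probes, -0.53 to 0.066 for Ccl17, -0.10 to 0.018 and -0.026 to 0.12 for Ccl25, -0.72 to 0.65 for Ccl5, -0.30 to 0.25 for Ccl24, -0.012 to 0.12 for Ccl27 and -0.060 to 0.21 for Cxcl4. Without single arrays the Cxcl12 probes ranged over 0.28 to 0.64 and -0.85 to -0.26, Ccl12 over -1.93 to -0.57, Ccl9 over -0.52 to -0.14, Cxcl7 over -1.66 to -0.34, Cxcl14 over -0.27 to -0.061 and the Cxcl16 probes over -0.62 to -0.085 and -0.28 to -0.030. Under normexp the Cxcl12 probes were at 0.42 and -0.077. The cause of these changes was not tested.

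Under normexp with the deposited local backgrounds, 37 spots on ko 48, 8 on ko 54 and 8 on WT 16 had a background over 2 times the array's median, and the lower quartile of the corrected log2 signals was 8.41 to 9.54 on those arrays, against 6.09 to 6.27 on the others. With those backgrounds set to the median, a setting added after that outcome was seen, Ccl21c was at -3.84 (limma adjusted p = 0.00562) with 43 calls, so the call depends on how these spots are treated under normexp. The members then counted 8 higher and 17 lower, with a median of -0.17. Ccl2, Ccl24, Ccl27, Ccl5, Ccl9, both Cxcl16 probes and Cxcl7, whose sign changed with the deposited backgrounds, had the sign of the main fit. No paired analysis was possible because the groups share no replicate number. Dim probes limit what can be said of most receptors.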

Other observations

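Of the chemokine receptor genes with older array names outside the members, Cxcr1 and Cxcr2 (Il8ra and Il8rb), Cxcr5 (Blr1) and the ligands Cxcl3 (Gm1960), Cxcl17 and Xcl1 were not well above background on all 3 arrays of either group. Xcr1, the receptor of Xcl1 on cross-presenting dendritic cells, read -4.71, -4.22 and -4.34 in ko samples, against -4.92, -4.79 and -4.59 in WT samples, a difference of 0.34 (95% interval -0.02 to 0.71, limma adjusted p = 0.649). Red blood cell transcripts, whose summed signal was 115 to 223 in ko samples and 76.3 to 137 in WT samples, overlapped between groups.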
